A study of Mus musculus with 4 samples.

Results

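Cells switch off the ERK branch of MAP kinase signaling with inhibitors that the pathway itself can induce. Dual-specificity phosphatases (DUSPs) remove phosphate from the activation loop of MAP kinases, whereas Sprouty and Spred proteins act nearer the receptor and restrain the step from receptor tyrosine kinases to RAS and RAF. In the aorta, ERK signaling follows growth factors, angiotensin II and mechanical load on vascular smooth muscle cells (VSMCs). The open chromatin around 10 genes of this kind, *Dusp1*, *Dusp4*, *Dusp5*, *Dusp6*, *Dusp10*, *Spry1*, *Spry2*, *Spry4*, *Spred1* and *Spred2*, was described in mouse aorta. All peaks overlapping the body of 1 of these genes (GENCODE vM21) or lying within 50 kb of it were taken. Overlapping peaks of different libraries were merged into regions, which gave 65 regions of 42874 in the whole data set (0.152%). Regions are named by gene and numbered along the chromosome, for example Dusp1-15.

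The peaks came from ATAC-seq, in which the transposase Tn5 inserts adapters into accessible DNA. Aortic nuclei of 60-day-old mice were studied in 4 libraries: Col3a1+/+ (WT) female, Col3a1+/+ male, Col3a1G938D/+ (VEDS, a model of vascular Ehlers-Danlos syndrome) female and Col3a1G938D/+ male. The VEDS mice are heterozygous for a glycine substitution in type III collagen, and none of the mice was treated. Each library pooled the aortas of 2 mice and was made with a single-cell kit but analyzed in aggregate, so that more cells of a type and more open chromatin per cell cannot be told apart. Each combination of genotype and sex had 1 library. The smallest two-sided p that permuting 2 libraries against 2 allows is 0.333, and genotypes were not tested against each other.

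The 4 peak lists differed widely in length, with 21176 peaks for WT female, 1236 for WT male, 504 for VEDS female and 41444 for VEDS male. The genome-wide background, a measure of depth, was 0.478 reads for WT female, 0.306 for WT male, 0.0727 for VEDS female and 1.32 for VEDS male. Peaks with more than 50% of bases masked as repeats made up 68.8% of the WT male list and 27.4% of the VEDS female list, against 3.90% and 5.09% in WT female and VEDS male. WT female and VEDS male, called the long lists, carry nearly all peaks; they differ in genotype, sex and depth, which cannot be told apart. Promoters of all 6 VSMC markers examined had a peak in both long lists. Endothelial markers had one for 1 of 5 genes in WT female and 4 of 5 in VEDS male, immune markers for 0 of 5 and 1 of 5, fibroblast markers for 3 of 5 in both, adipocyte markers for 0 of 4 and 1 of 4, striated muscle markers for 0 of 4 and 1 of 4, and Schwann cell or neuron markers for 1 of 3 in both. The part of other cell types in the results was not tested.

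Sequences are shown for the sites on which the description turns, all from the GRCm38 reference (mm10) and written in the direction of the gene. They were chosen with their values known. The *Dusp1* promoter is shown for its full cAMP response element (CRE) between GC boxes (chr17:26508557-26508667, minus strand). The *Dusp5* promoter is shown for an ETS match and adjacent CArG boxes, the sequence bound by serum response factor (chr19:53528939-53529108, plus strand). Capitals mark the matches, which in *Dusp5* also include a KLF match and a GC box.
Dusp1 promoter: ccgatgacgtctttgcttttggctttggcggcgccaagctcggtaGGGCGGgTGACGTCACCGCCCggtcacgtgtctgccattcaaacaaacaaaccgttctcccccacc
Dusp5 promoter: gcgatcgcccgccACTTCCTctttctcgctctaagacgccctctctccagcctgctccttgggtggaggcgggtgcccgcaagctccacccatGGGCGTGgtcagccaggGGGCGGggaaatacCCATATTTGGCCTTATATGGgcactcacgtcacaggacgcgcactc

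The 150 bases before the start site of *Dusp6* are shown because this was the single region called in 3 lists (chr10:99263081-99263230, plus strand). Here capitals mark the bases inside the peaks of all 3 lists.
Dusp6 promoter: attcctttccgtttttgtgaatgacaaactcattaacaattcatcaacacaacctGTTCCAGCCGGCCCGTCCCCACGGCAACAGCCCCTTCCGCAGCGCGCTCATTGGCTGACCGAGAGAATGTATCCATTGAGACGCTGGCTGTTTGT

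Among sites outside the promoters of the 10 genes, the region 22.5 kb upstream of the main *Dusp1* start site holds an AP-1 and a RUNX match (chr17:26530945-26531069, minus strand), and MEF2 matches lie 17.3 kb downstream of it, in a region (Dusp1-6) that spans the start of the long noncoding RNA *AC122252.2* (chr17:26491098-26491169, minus strand), and in an intron of *Dusp10* (chr1:184042065-184042136, plus strand). Capitals mark these matches.
Dusp1 upstream site: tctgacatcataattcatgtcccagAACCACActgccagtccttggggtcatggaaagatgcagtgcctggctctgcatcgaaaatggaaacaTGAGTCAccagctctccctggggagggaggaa
Dusp1 downstream site: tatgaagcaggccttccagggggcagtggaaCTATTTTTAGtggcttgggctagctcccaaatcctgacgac
Dusp10 intron site: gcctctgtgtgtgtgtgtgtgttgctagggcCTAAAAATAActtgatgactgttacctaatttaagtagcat

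The regions were concentrated in the long lists. Of the 65 regions, 30 had a peak in WT female, 1 in WT male, 0 in VEDS female and 64 in VEDS male. Peaks of both long lists shared 29 regions, 35 were called in VEDS male only and 1 in WT female only. The 29 shared regions were 96.7% of the WT female regions at these genes (95% Wilson interval 83.3 to 99.4, counting error only) and 45.3% of the VEDS male regions (33.7 to 57.4). Over all regions these shares were 94.9% and 47.5%, so that the feedback genes were near the background in both directions. Within 3 kb of any start site 16 of 33 VEDS male regions were shared (48.5%), against 59.4% of all such regions, and farther away 13 of 31 (41.9%), against 37.2%. Taken by genotype, the union of the libraries gave the same counts, because the single WT male peak lay in a region of the WT female list. The map of regions around the start sites shows their spread.

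**Figure D1:**
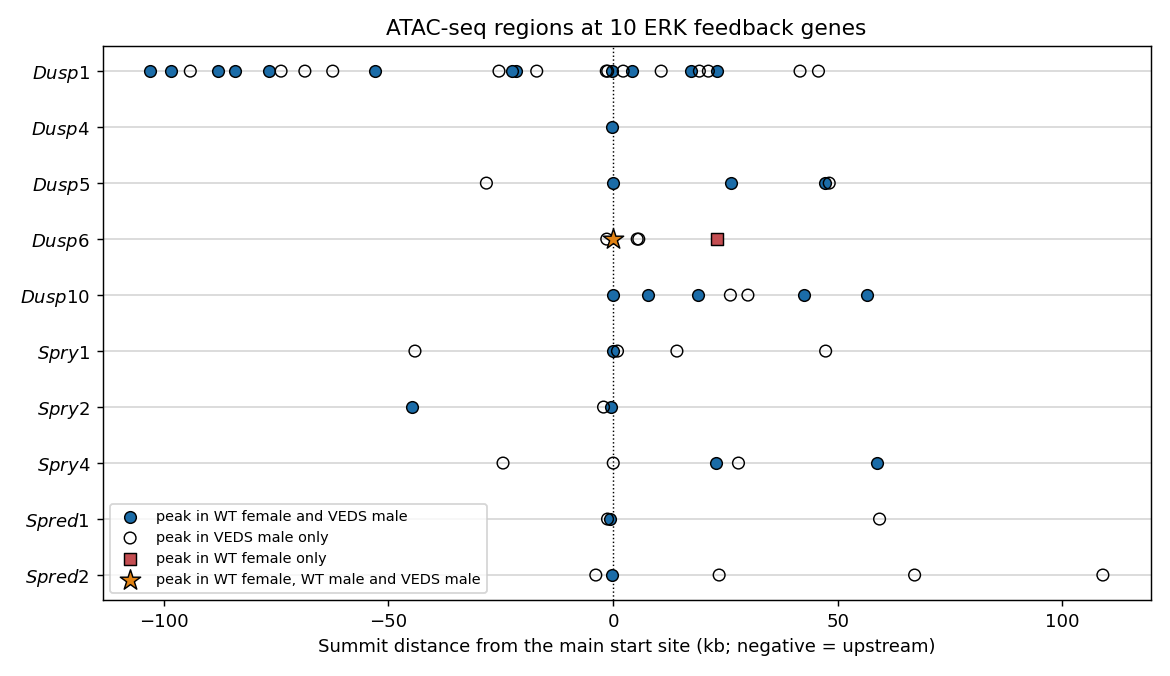
Position of the 65 regions at the 10 ERK feedback genes, as distance of the summit from the main start site in kb (negative values are upstream). Filled circles are the regions with peaks in WT female and VEDS male, open circles the 35 in VEDS male only, the square the 1 in WT female only and the star the *Dusp6* promoter, called in 3 lists; *Dusp1* alone has 26 regions and *Dusp4* has 1.

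Promoters of the feedback genes were open in nearly every case in the long lists. A peak within 3 kb of a start site was found at 9 of 10 genes in WT female, against 47.4% of 21938 protein-coding genes, and at 10 of 10 in VEDS male, against 58.5%. The gene without one in WT female was *Spry4*. In WT male 1 of 10 genes had such a peak (1.56% of all genes), and 0 of 10 had it in VEDS female (1.49%). Only 1.81% of all merged regions had peaks in 3 or more lists, and 1 of the 65 regions did.

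*Dusp1*, *Dusp4* and *Dusp5* encode nuclear phosphatases that are induced by growth factors and stress. DUSP1 also acts on p38 and JNK, whereas DUSP5 is selective for ERK. At the *Dusp1* promoter (Dusp1-10, chr17:26508314-26508958) the summit held 32 reads in WT female (5.68-fold over the local background) and 64 in VEDS male (4.69-fold). All folds include 1 read added to summit and background. This lowers them more at low depth, so that folds of the 2 libraries are not directly comparable. At the *Dusp4* promoter (Dusp4-1, chr8:34807064-34807357) it held 12 reads in WT female (6.92-fold) and 24 in VEDS male (7.02-fold). At the *Dusp5* promoter (Dusp5-2, chr19:53528790-53529174) it held 19 reads in WT female (10.0-fold) and 51 in VEDS male (11.6-fold). The VEDS male counts were the higher ones at each promoter, as is the background of that library, which was 2.76 times that of WT female. None of the 3 promoters had a peak in WT male or VEDS female.

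DUSP6 is a cytoplasmic phosphatase selective for ERK. Its promoter region (Dusp6-2, chr10:99262960-99263516) was called with 36 reads in WT female (13.3-fold), 8 in WT male (5.37-fold, −log10 q 3.65) and 68 in VEDS male (11.1-fold), and was not called in VEDS female. The 3 summits lay 35, 28 and 3 bases upstream of the start site, and the 3 peaks had 175 bases in common. DUSP10 acts mainly on p38 and JNK. Its promoter (Dusp10-1, chr1:184033798-184034598) held the most reads of the 10 in VEDS male, 74 (12.6-fold), and 33 in WT female (11.7-fold).

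Sprouty proteins are membrane-associated inhibitors of receptor signaling to RAS. The *Spry1* promoter (Spry1-2, chr3:37639749-37640055) held 11 reads in WT female (6.97-fold) and 24 in VEDS male (8.34-fold). The *Spry2* promoter (Spry2-1, chr14:105897064-105897626) held 19 reads in WT female (7.33-fold) and 51 in VEDS male (9.01-fold). At *Spry4* (Spry4-4, chr18:38601282-38601521) the promoter was called in VEDS male only, with 34 reads (9.59-fold). Scaled by the ratio of the backgrounds, these 34 reads correspond to 12.3 in WT female, a depth at which the *Dusp4* and *Spry1* promoters were called there. Of all 469 VEDS male regions with 34 summit reads, 25.6% had no WT female peak, and of the 192 of these with at least the fold of Spry4-4, 14.1% had none.

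Spred proteins, relatives of Sprouty, recruit neurofibromin to RAS. The *Spred1* promoter (Spred1-2, chr2:117120320-117120804) held 14 reads in WT female (7.02-fold) and 35 in VEDS male (9.20-fold). The *Spred2* promoter (Spred2-2, chr11:19923960-19924463) held 14 in WT female (6.08-fold) and 57 in VEDS male (9.47-fold). The reads and the fold enrichment ordered the promoters differently: *Dusp1* was among the 3 highest by reads in WT female but lowest by fold in both long lists.

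**Figure D2:**
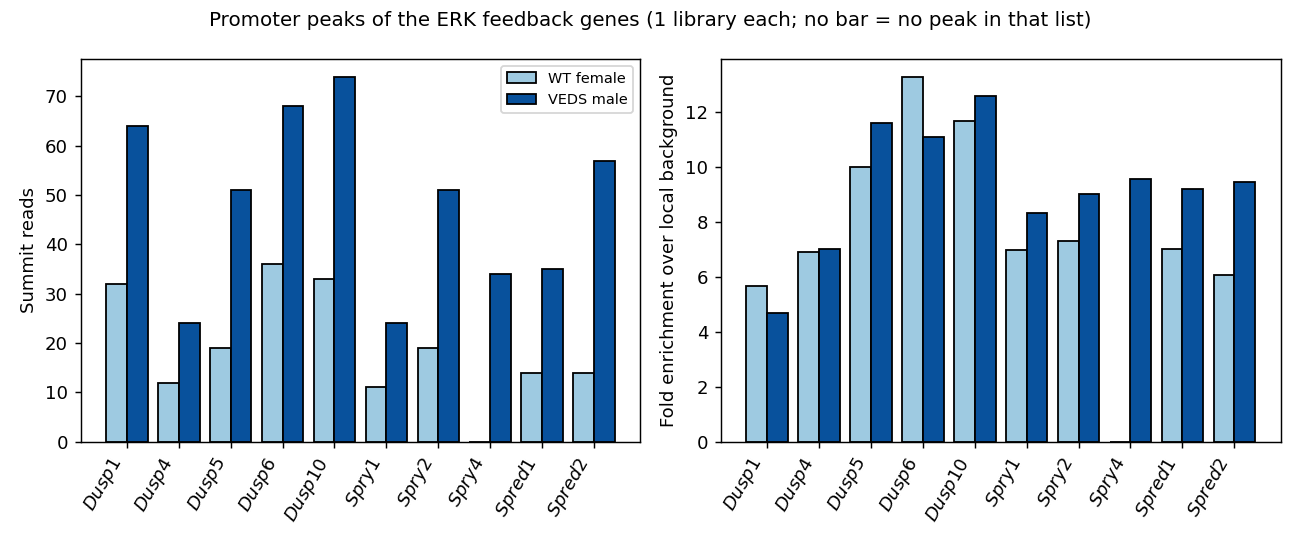
Reads at the summit (left) and fold enrichment over the local background (right) of the promoter peak of each gene in the WT female and VEDS male libraries, 1 library each and hence without error bars. Folds include 1 read added to summit and background. *Dusp6* has the highest fold in WT female (13.3) and *Dusp10* in VEDS male (12.6), and *Spry4* has no WT female bar because no peak was called there.

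*Dusp1* stood apart from the other genes in the number of regions. It had 26, or 16.6 per 100 kb of gene and flanks, and only 55 of 21938 protein-coding genes (0.251%) had as many or more. The annotation gives *Dusp1* also transcripts that start far upstream, and Dusp1-17, 53.0 kb upstream of the main start site, holds the start of one of them and that of *Ergic1*, a gene of the early secretory pathway on the other strand. The window therefore reaches far into *Ergic1*, and 7 of the 26 regions were nearest to the start of another coding gene. The background was also high here: in VEDS male the 5 regions within 5 kb of the main start site had a local background 7.67 to 10.3 times that of the genome, and 99.1% of all VEDS male regions had one below 7.67. At the other 9 genes it was 1 to 3.97 times, with a median of 1.86 over 38 regions. A high local background lowers the fold enrichment of a peak for the same number of reads.

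The other genes had fewer regions. *Dusp10* had 7, *Dusp5*, *Dusp6*, *Spry1*, *Spry4* and *Spred2* had 5 each, *Spry2* and *Spred1* had 3 each and *Dusp4* had only its promoter. The median over the 10 genes was 4.32 regions per 100 kb, against 2.64 over all protein-coding genes (quartiles 0.839 and 5.04). At most 1 region was found at 29.5% of all protein-coding genes. Of the 65 regions, 19 lay in the promoter of the gene itself, 10 in its introns, 1 in an exon and 35 outside the gene, and the nearest coding start site belonged to the feedback gene for 54.

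Beyond the promoters, the highest regions by −log10 q were found at different positions in each gene. Distances upstream or downstream are from the main start site of the gene. At *Dusp1* it was Dusp1-21 in both long lists, in an intron of *Ergic1* 76.5 kb upstream, with 29 reads in WT female (7.74-fold) and 81 in VEDS male (9.0-fold). *Dusp10* had Dusp10-2 in WT female, 7.79 kb downstream of its main start site, with 16 reads (8.54-fold) and 34 in VEDS male (8.49-fold). In VEDS male the highest at *Dusp10* was Dusp10-5, 30.0 kb downstream of the main start site, with 36 reads (9.21-fold) and no WT female peak.

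At *Dusp5* the highest region outside the promoter in WT female was Dusp5-3, 26.3 kb downstream, with 12 reads (6.85-fold), and it held 13 in VEDS male (4.50-fold). In VEDS male it was Dusp5-4, 47.2 kb downstream, with 17 reads (5.07-fold) and 9 in WT female (5.44-fold). The only region called in WT female alone was Dusp6-5, 23.2 kb downstream of the *Dusp6* start site, with 6 reads (4.63-fold), close to the lowest count of 5 in that list. In VEDS male the highest region outside the *Dusp6* promoter was Dusp6-4, 5.71 kb downstream and 979 bases from the start of the noncoding RNA *Gm48089*, with 11 reads (4.34-fold).

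Some distal regions of the Sprouty genes were shared by the long lists. Of all VEDS male regions farther than 3 kb from any start site, 37.2% were shared with WT female. The share of all genes with a shared distal region was not computed. *Spry4* had Spry4-3 in both long lists, 22.9 kb downstream of its start site, with 18 reads in WT female (9.0-fold) and 36 in VEDS male (10.5-fold). *Spry2* had Spry2-3, 44.7 kb upstream, with 9 reads in WT female (6.77-fold) and 16 in VEDS male (7.33-fold). *Spry1*, *Spred1* and *Spred2* had distal regions in VEDS male only, led by Spry1-5 with 15 reads (6.20-fold), Spred1-3 in an exon with 16 (7.33-fold) and Spred2-3 in an intron with 24 (8.29-fold).

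The 35 regions called in VEDS male only held 10 to 42 reads there, with a median of 19, and the 29 shared regions held 13 to 81, with a median of 36. Over all regions the medians were 15 and 37. Regions of VEDS male alone thus had fewer reads at the feedback genes, as they did elsewhere. By reads the highest of the 35 was Dusp1-20 with 42, and 10.2% of all VEDS male regions with 42 reads had no WT female peak (7.49% of those with at least its fold). By −log10 q it was Dusp10-5 (23.4, against 13.7 for Dusp1-20).

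The ranks of the 29 shared regions were compared within each list. Each region was given its percentile by −log10 q among the 19618 regions shared by the long lists, and a difference over 25 percentage points was counted. This was found for 3 of 29 regions, against 16.0% of all shared regions. Dusp1-15 stood at the 31.9th percentile in WT female and the 74.2nd in VEDS male (18 and 71 reads). The *Spred2* promoter stood at 36.7 in WT female and 70.7 in VEDS male. Dusp5-3 went the other way, from 40.0 in WT female to 2.63 in VEDS male. Of the 29, 12 ranked higher in VEDS male and 17 in WT female, with a median difference of -4.07 points against -0.135 over all. The plot of rank differences sets them beside all shared regions.

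**Figure D3:**
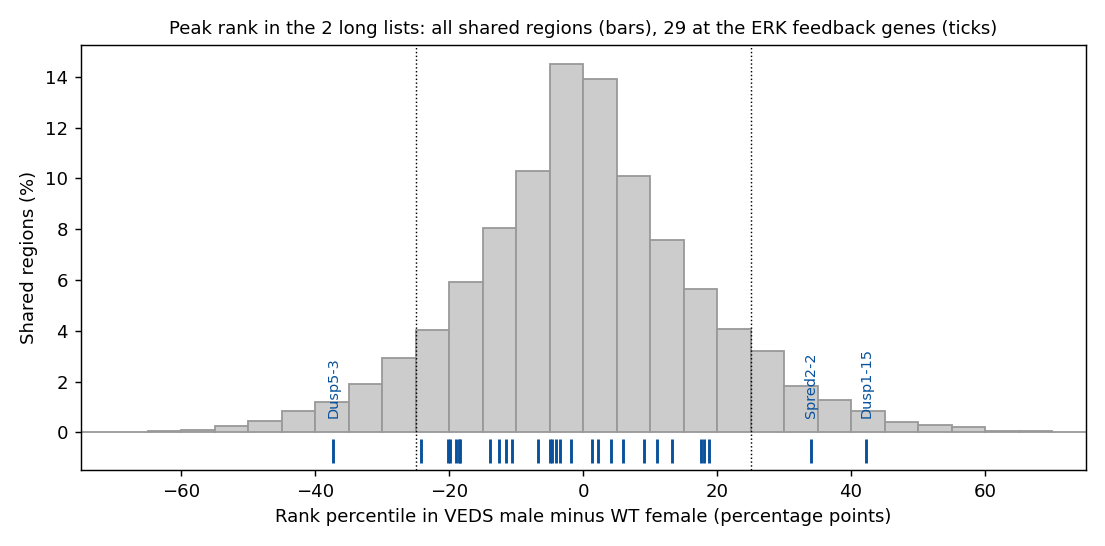
Difference in rank percentile between VEDS male and WT female (percentage points, positive when higher in VEDS male). Gray bars give the percent of all 19618 shared regions in steps of 5 points and ticks the 29 regions at the ERK feedback genes; dotted lines mark 25 points, and Dusp5-3, Spred2-2 and Dusp1-15 lie beyond them.

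The reads themselves, each divided by the background of its library, gave a log2 ratio of VEDS male to WT female with a median of -0.28 over the 29 regions (SD 0.37 between regions, range -1.35 to 0.56), against -0.17 over all shared regions (SD 0.41). The lowest ratio was at Dusp5-3 (-1.35) and the highest at the *Spred2* promoter (0.56) and Dusp1-15 (0.52). Of all shared regions, 95% lay between -1.05 and 0.61, so that Dusp5-3 alone fell outside. These ratios compare 2 libraries and carry no replicate error.

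The short lists were also set against the reads of the long lists. When the reads of the 30 WT female regions were scaled to the background of WT male, 25 reached the median of 7 reads of the peaks called there, as did 69.2% of all WT female regions, but only the *Dusp6* promoter was called. Of the 14290 such regions across the genome, 2.54% were called. Scaled to VEDS female, 0 of 30 reached its median of 6 reads, against 3.03% of all WT female regions (627), and the highest was the *Dusp6* promoter at 5.48. Of these 627 regions, 15.0% were called in VEDS female. The lowest count called in VEDS female, 3 reads, was reached by 8 of the 30, and 0 were called. The called share over all regions at this lowest count was not computed, so the 8 regions have no background to be set against.

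Consensus motifs were searched on both strands in windows of 300 bp around the summits. Of the 65 regions, 26 lie at *Dusp1*, so that this locus weighs most in the shares. The Wilson intervals treat regions as independent and give counting error only. ETS factors, the end points of ERK signaling to many immediate-early genes, were searched as AGGAAGT or CGGAAGT. A match was found in 9 of 65 regions (13.8%, Wilson interval 7.46 to 24.3), against 13.3% of all regions. By position it was 3 of 33 regions within 3 kb of a start site, against 17.1%, and 6 of 32 regions farther away, against 10.1%. In Dusp5-3, Dusp6-4, Dusp6-5 and Spry1-4 the ETS match lay inside the summit window but outside the peak. The same ETS site lay in the windows of both long lists in 2 regions, the *Dusp5* promoter and Spry4-1, 58.8 kb downstream of the *Spry4* start site. Spry4-1 held 36 reads in VEDS male and had 2 peaks in WT female. The WT female peak higher by −log10 q held 12 reads, with its summit 519 bases from that of VEDS male. The ETS site lay in the window of the other WT female peak, whose reads are not given here.

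AP-1, the dimer of JUN and FOS proteins, was searched as TGAGTCA or TGACTCA. It was found in 5 of 65 regions (7.69%, interval 3.33 to 16.8), against 12.0% of all regions. This was 1 of 33 regions near start sites, against 7.66%, and 4 of 32 farther away, against 15.7%. A site common to the windows of both long lists was found in Dusp1-15 only, 17 bases from the nearest summit. At Dusp5-1, 28.2 kb upstream of *Dusp5* and called in VEDS male with 12 reads, the summit lay inside the AP-1 match. The remaining AP-1 matches, in Dusp1-1, Dusp1-14 and Dusp10-6, were in VEDS male windows only. Dusp1-14 and Dusp10-6 were nevertheless called in both long lists, and the Dusp1-14 site also lay inside the WT female peak, outside its summit window. For ETS and AP-1 alike, the share over all regions lay inside the interval of the share at the feedback genes. The counts depend on the consensus. With the longer ETS form ACGGAAGT or CCGGAAGT, 0 of 65 regions had a match (interval up to 5.58%), against 3.47% of all regions. With 1 free base at either end of AP-1, 17 of 65 had one (26.2%, interval 17.0 to 38.0), against 31.1%.

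Among the other families, KLF matches (GGGNGTG) were in 36.9% of the 65 regions, against 28.3% of all, and GC boxes of the SP family (GGGCGG) in 27.7%, against 30.1%. A KLF match can overlap a GC box. MEF2 matches were in 10.8%, against 6.25%, and the same MEF2 site lay in both long lists in Dusp1-6 and Dusp10-2. By position they were in 5 of 33 regions near start sites (15.2%, against 3.48%), and these 5 all lie at *Dusp1*. Farther away they were in 2 of 32 (6.25%, against 8.59%). Outside *Dusp1*, MEF2 matches were found at *Dusp10* only (Dusp10-2 and Dusp10-7). CTCF core matches were in 13.8%, against 14.2%. TEAD (GGAATGT) was found in 7.69%, against 6.58%, RUNX (TGTGGTT) in 6.15%, against 5.52%, and FOX (TGTTTAC) in 6.15%, against 3.63%, including the *Dusp4* promoter 155 bases upstream of its start site and Spry2-3. EGR (GTGGGCG) was found in 0 of 65, against 6.81%, and the NFI palindrome in 0 of 65, against 0.0630%. The Wilson interval for 0 of 65 reaches 5.58%. The steroid receptor palindrome was in 2 regions (3.08%, against 1.16%), in the VEDS male window of Spred1-2 and the WT female window of Dusp1-22. Both regions lie within 3 kb of a start site (2 of 33 such regions, against 0.699% of all) and were called in both long lists. Each site also lay inside the peak of the other long list, but outside its summit window.

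**Figure D4:**
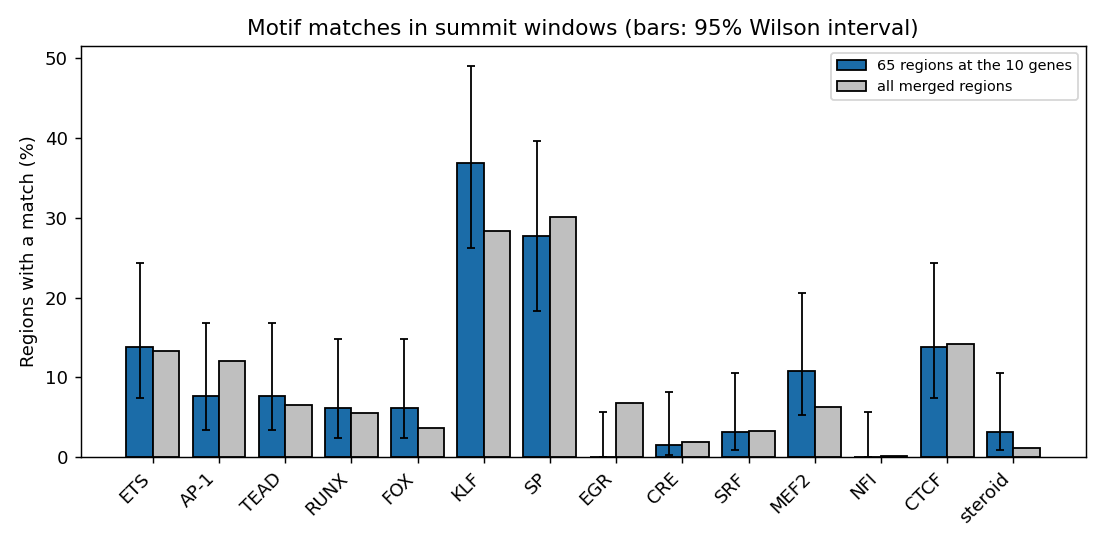
Percent of regions with a motif match in a 300-bp summit window, for the 65 regions at the ERK feedback genes (blue, with 95% Wilson interval) and all 42874 merged regions (gray). Of the 65 regions, 26 lie at *Dusp1*, and the interval treats regions as independent. The interval contains the value for all regions for every family except EGR, for which 0 of 65 regions had a match against 6.81%.

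Sites in single promoters were then located. The CRE (TGACGTCA), the palindrome bound by CREB, was found in the *Dusp1* promoter alone (1.54% of the 65 regions, against 1.84% of all), 140 bases upstream of the start site in the windows of both long lists. It touched 1 GC box and lay 1 base from another. CArG boxes were in 3.08% of the 65 regions, against 3.26%: the *Dusp5* promoter and Dusp1-17 at the shared *Dusp1* and *Ergic1* start. The *Dusp5* promoter has 2 CArG boxes with 0 bases between them, ending 26 bases before the start site, and an ETS match 104 bases farther upstream. Only 35 of all merged regions (0.0816%) had 2 or more CArG boxes in a summit window. RefSeq promoters (GRCm38.p6, 300 bases each) were listed for 8 of the 10 genes, and 0.0183% of all 32851 promoters listed had 2 or more CArG boxes, 1.63% at least 1 and 1.79% a CRE. The *Dusp6* promoter had KLF matches only, inside the windows of 3 lists. A match describes letters in the window and not a bound factor.

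The promoters of other genes of the pathway were counted in the same way. Of 59 genes, a promoter peak was found at 47 in WT female (47.4% of all protein-coding genes), 1 in WT male (1.56%), 1 in VEDS female (1.49%) and 58 in VEDS male (58.5%). Receptors and adaptors had 13 of 17 in WT female and 17 of 17 in VEDS male. RAS and the kinases had 12 of 13 in both, and *Rps6ka1*, an ERK-activated ribosomal S6 kinase, had no peak in either. Other negative regulators had 12 of 14 and 14 of 14, with *Dusp2* and *Dusp9* lacking a peak in WT female. Target genes of the pathway had 10 of 15 and 15 of 15, with *Elk3*, *Etv4*, *Fosl1*, *Myc* and *Ccnd1* lacking one in WT female, as did the receptors *Erbb2*, *Met*, *Kdr* and *Flt1*. The single WT male peak was at *Egfr* and the single VEDS female peak at *Spred3*.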

How the data were processed

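The authors aligned the ATAC-seq reads to mm10 (GRCm38), removed duplicates by barcode, corrected Tn5 cut sites and called peaks per library with MACS2. The aligner is not given in the sources used here. The deposited lists give a score, a fold enrichment, −log10 p and −log10 q, all computed by the authors. The fold is the ratio of summit reads to local background with 1 read added to both. It is therefore below the plain ratio, and more so at low depth, so that folds of different libraries are not on the same scale. The largest q was 0.050. The reads at each summit were solved from fold and −log10 p as a whole number under a Poisson model, with success for 99.3% to 99.9% of peaks per list. In 500 simulated peaks, 100% were recovered. The lowest local background of a list was taken as its genome-wide background. Peaks overlapping by 1 bp or more were merged on the main chromosomes, and promoters were within 3 kb of a GENCODE vM21 start site. Named were all 10 genes, their promoter regions, regions in 3 or more lists, the non-promoter region of each gene with the highest −log10 q in each long list, and distal regions with an ETS or AP-1 match in both. Members, lists and rules were chosen with earlier results of these data known. *Spry3* was left out of the pathway genes because it is not on a main chromosome in the annotation. Calculations used Matplotlib 3.10.9, pysam 0.24.0, pandas 2.3.3, SciPy 1.17.1, NumPy 2.4.6 and statsmodels 0.14.6 in Python 3.11.15.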

Additional observations from a re-analysis of the deposited data

Results flagged for a closer look

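The number of regions at the feedback genes went in opposite directions between genotypes in the 2 sexes. In females the VEDS library had 30 fewer regions than WT (0 against 30, a difference of -30), and in males it had 63 more (64 against 1). All merged regions went the same way, with 482 in VEDS female against 20663 in WT female and 41268 in VEDS male against 1195 in WT male, so that the pattern is one of the whole lists. Each number comes from 1 library, the difference was not tested, and depth differed in the same direction, with a background of 0.0727 against 0.478 reads in females and 1.32 against 0.306 in males.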

How the results depend on the processing

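Of 90 recalculations, 57 stayed within the limits set (1.5 times the count, or the Wilson interval of the share) and 33 did not. Some of the 57 could not change, so that this tally is no measure of stability. VEDS female had 0 regions to leave out. A limit of 50% masked bases removed nothing, because the highest share in a peak at these genes was 31.4%. Promoter counts of 1 long list do not depend on the other libraries. No paired analysis was possible because no result comes from a test, and each sex has 1 WT and 1 VEDS library. With the 504 highest peaks of each list, no region, promoter peak or motif match was left at these genes (0 for each count). At −log10 q of at least 10 there were 35 regions, 5 WT female promoter peaks, 2 regions with AP-1, 3 with ETS, 0 in 3 or more lists, and sharing of 28.6% of VEDS and 100% of WT regions. At −log10 q of at least 5, 5 regions had ETS and 0 were in 3 or more lists. With 10 kb in place of 50 kb there were 39 regions, 3 with AP-1, 3 with ETS and 100% of WT regions shared. With 100 kb, 10 regions had AP-1 and 16 had ETS. By the nearest protein-coding start site, 13 had AP-1. With the longer ETS form 0 had ETS (3.47% of all regions), and with 1 free base at either end 17 had AP-1 (31.1% of all). Leaving out 1 library gave 31 to 65 regions, 1 to 5 with AP-1, 5 to 9 with ETS, 0 to 1 in 3 or more lists, 1.56% to 45.3% of VEDS regions shared and 0% to 100% of WT regions shared; the low region, motif and WT values came without VEDS male, and 1.56% came without WT female. The *Dusp6* promoter was no longer in 3 lists without WT female, WT male or VEDS male. Rank differences over 25 points were found for 4 of 29 regions by fold enrichment (19.3% of all shared regions). At −log10 q of at least 5 in both lists they were found for 3 of 23 (18.7%). For the other settings, apart from the other motif forms, shares over all regions were not computed. Whether those changes belong to these genes or to the whole lists was not tested. A region without a peak was not taken as closed, and what set the length of the short lists was not tested.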
